A study of Mus musculus with 2 samples.

Results

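Glucose sensing and glycogen storage were followed through 9 liver genes, out of 19465 gene entries in the count tables, in 2 mouse liver sections. They were chosen by name, and every entry whose symbol was Gckr, Pklr, Txnip, Mlxipl, Slc2a2, Gys2, Pygl, Ppp1r3b or Ppp1r3c was found. RNA was measured with the 10x Visium assay on formalin-fixed, paraffin-embedded tissue, in which pairs of gene probes are ligated on spots of a barcoded slide and counted by unique molecular identifiers (UMIs). Of 2 sections, each 5 µm thick, 1 came from an AEG-1-WT mouse and 1 from an AEG-1-C75S mouse, both untreated females 8 weeks of age from matings of heterozygous parents. AEG-1-C75S animals carried a whole-body CRISPR/Cas9 knock-in in which the palmitoylated cysteine of AEG-1, the protein of the Mtdh gene, was replaced by serine, and AEG-1-WT littermates carried the unchanged gene. The feeding state and the time of day at collection were not given in the sources used here. With 1 animal per genotype no test of genotype could be made, so every difference below compares 2 sections, called WT and C75S after their genotypes.

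Hepatocytes take up glucose through the transporter GLUT2 (Slc2a2) and phosphorylate it, a step restrained by the nuclear regulatory protein Gckr. Sugar phosphates then activate the transcription factor ChREBP (Mlxipl), which binds carbohydrate response elements and drives glycolytic and lipogenic genes, among them liver pyruvate kinase (Pklr) and the arrestin-like protein Txnip, which dampens glucose uptake. Glucose that is not burned is stored as glycogen by glycogen synthase (Gys2) and released again by glycogen phosphorylase (Pygl), with protein phosphatase 1 brought to the glycogen particle by targeting subunits such as Ppp1r3b and Ppp1r3c. In the lobule, oxygen-rich blood enters at the portal tract, and periportal hepatocytes are known for glucose release and pericentral ones for glucose uptake.

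Of the motifs searched, the carbohydrate response element is the one that links ChREBP to its targets. Promoter sequences are shown for the 4 members in which any searched motif was present, that element or another. They are from RefSeq on GRCm38.p6, 300 bases each around an annotated start site, 5′ to 3′ on the gene's strand, in lower case with matches in capitals. The patterns searched on both strands were a carbohydrate response element written as CACGNGNNNNNCNCGNG, which was drawn up so as to hold the known Pklr and Txnip elements, the E-box CACGTG, and the FOXO site GTAAACA. They were found in 0.365%, 7.15% and 3.65% of the 32851 promoter windows of all genes. Pklr, downstream window at chr3:89136373-89136672 on the plus strand, and Txnip at chr3:96557707-96558006 on the plus strand held the carbohydrate response element, and Txnip also held a FOXO site. Mlxipl, upstream window at chr5:135089640-135089939 on the plus strand, and Ppp1r3c at chr19:36736555-36736854 on the minus strand held an E-box.
Pklr: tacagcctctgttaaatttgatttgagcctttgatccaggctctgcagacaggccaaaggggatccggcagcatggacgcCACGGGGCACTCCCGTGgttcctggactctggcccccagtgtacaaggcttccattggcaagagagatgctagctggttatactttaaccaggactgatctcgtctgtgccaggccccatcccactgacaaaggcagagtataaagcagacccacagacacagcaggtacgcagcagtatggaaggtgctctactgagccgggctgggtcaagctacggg
Txnip: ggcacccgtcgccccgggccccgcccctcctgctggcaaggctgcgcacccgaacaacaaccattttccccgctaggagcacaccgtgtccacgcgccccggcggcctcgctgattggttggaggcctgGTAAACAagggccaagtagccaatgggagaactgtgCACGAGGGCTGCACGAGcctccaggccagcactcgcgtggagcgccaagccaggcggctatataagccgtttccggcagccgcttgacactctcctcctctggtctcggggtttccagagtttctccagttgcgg
Mlxipl: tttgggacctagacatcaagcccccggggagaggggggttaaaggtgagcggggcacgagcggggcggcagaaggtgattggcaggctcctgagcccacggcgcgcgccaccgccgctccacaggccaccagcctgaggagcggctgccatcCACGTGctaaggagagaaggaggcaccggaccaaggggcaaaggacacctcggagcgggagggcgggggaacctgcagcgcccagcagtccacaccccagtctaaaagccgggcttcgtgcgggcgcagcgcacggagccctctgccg
Ppp1r3c: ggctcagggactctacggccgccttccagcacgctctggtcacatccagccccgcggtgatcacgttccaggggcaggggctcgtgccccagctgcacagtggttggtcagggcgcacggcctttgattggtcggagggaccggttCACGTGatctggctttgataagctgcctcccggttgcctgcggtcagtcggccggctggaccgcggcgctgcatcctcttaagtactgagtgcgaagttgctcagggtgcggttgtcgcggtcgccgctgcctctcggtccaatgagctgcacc
Counted from the start site as 0, the element began at position -170 in Pklr and at -85 in Txnip. The Txnip FOXO site began at -121, and the E-boxes began at -98 in Mlxipl and -104 in Ppp1r3c. The upstream Pklr window, the downstream Mlxipl window and the windows of Gckr, Slc2a2 and Pygl held none of these letters. Windows were given for 7 of the 9 members, and Gys2 and Ppp1r3b were not among them. A match is a description of the sequence and was not measured as binding.

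After spots with more than 50000 UMIs were set aside (7 and 4 spots), 2309 WT spots with 42246988 UMIs and 2163 C75S spots with 41674347 UMIs remained, with medians of 16830 and 18808 UMIs a spot. The slide areas under the sections share their barcode design, and 1896 barcodes occurred in both sections. Mtdh differed by a log2 ratio of -0.02, which checks no label because the knock-in alters 1 residue. Of the 8 hepatocyte genes listed 7 were in the tables, and they summed to 183330 CPM in WT and 193224 CPM in C75S, where CPM is UMIs per 1000000. Marker genes of the other cells of a spot did not all sum alike in both sections. The 9 Kupffer cell genes summed to 1410 CPM in WT and 1846 CPM in C75S, 2 of them past a log2 ratio of 0.5. The 5 portal matrix genes summed to 176 and 89.6 CPM, the 4 smooth muscle genes to 30.6 and 8.85 CPM, and the 4 red cell genes found, of 5 listed, to 627 and 416 CPM. All 5 matrix genes, all 4 smooth muscle genes and 2 of the red cell genes were past -0.5. The 5 cholangiocyte genes (129 and 96.6 CPM, 2 past -0.5), 6 stellate genes (605 and 750 CPM), 6 endothelial genes (485 and 507 CPM) and 5 leukocyte genes (516 and 531 CPM) gave the remaining sums, and no marker of these lists was at 0 in either section. The part of these cells in the ratios below was not tested, except where a value is given for the spots they fill. A spot holds several cells, so fewer cells of a type and less RNA per cell cannot be told apart.

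Txnip was the member that stood apart between the sections. It was 2.20-fold higher in C75S, while the other 8 members lay between 0.792-fold (Ppp1r3b) and 1.18-fold (Ppp1r3c) of their WT level. By a rule of a log2 CPM ratio of at least 0.5, 1 of the 9 members (Txnip) was higher, against 1.98% of the 8729 genes that had 500 or more UMIs in all, and 0 of the 9 were lower by -0.5 or more, against 3.48% of those genes. No replicated test stood behind these counts. The members were chosen with earlier results of these data known, so the counts only describe. The median log2 ratio of the members was -0.06 and that of the 8729 genes -0.05, with 90% of all genes between -0.43 and 0.32.

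**Figure D1:**
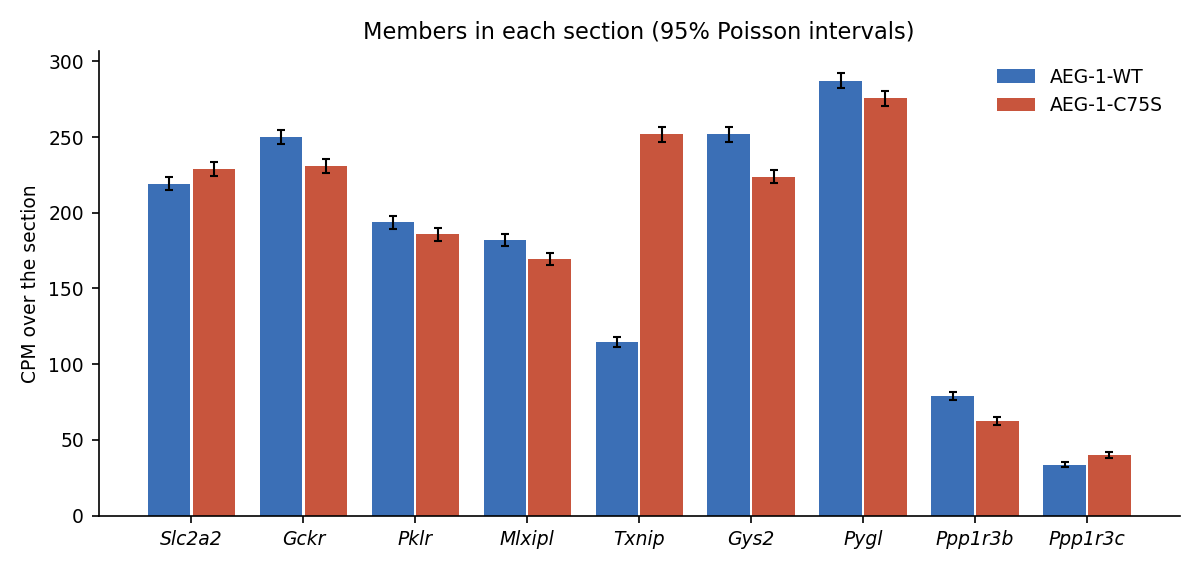
Level of each member, in CPM over all kept spots, in the WT section (blue) and the C75S section (red), with 95% Poisson intervals that cover counting error only. Txnip stood at 114 and 252 CPM and the other 8 pairs of bars differed by far less. Bar heights of different genes are not comparable, since each gene has its own probes.

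The glucose transporter and the regulator of glucose phosphorylation were near level between the sections. Slc2a2 (chromosome 3, 28697903 to 28731359, GRCm38, plus strand), the low-affinity glucose transporter, was at 219 CPM in WT (95% Poisson interval 215 to 224) and 229 CPM in C75S (224 to 233). Its log2 ratio was 0.06 (95% interval from the binomial share of the 2 sums 0.02 to 0.10), and it came to -0.01 when the sums were scaled to hepatocyte genes. Intervals here and below cover counting error only. Gckr (chromosome 5, 31297443 to 31327314, plus strand), the nuclear regulatory protein, was at 250 CPM in WT and 231 CPM in C75S, a log2 ratio of -0.12 (-0.16 to -0.08).

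ChREBP and its best-known glycolytic target were also close to level. Mlxipl (chromosome 5, 135089890 to 135138382, plus strand) was at 182 CPM in WT and 170 CPM in C75S, a log2 ratio of -0.10 (-0.15 to -0.05). Mlx, the partner with which ChREBP binds DNA, was at 19.7 and 17.2 CPM (-0.19, -0.34 to -0.05). Pklr (chromosome 3, 89136142 to 89146784, plus strand), which makes pyruvate in the last step of glycolysis, was at 194 CPM in WT and 186 CPM in C75S, a log2 ratio of -0.06 (-0.11 to -0.02). The carbohydrate response element pattern was drawn up to hold Pklr and Txnip, so its presence at both is no result. The ratios of these 2 members were unlike, Pklr near level and Txnip higher, and the part of ChREBP was not tested.

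Txnip (chromosome 3, 96557957 to 96561883, plus strand) was at 114 CPM in WT (111 to 118) and 252 CPM in C75S (247 to 257), from 4837 and 10489 UMIs. The log2 ratio was 1.14 (1.09 to 1.19), and 29 of the 8729 genes had a higher one. Spot by spot, the median was 95.8 CPM in WT and 236 CPM in C75S, and 90.8% of C75S spots lay above the WT median. The lowest 10% of C75S spots reached up to 102 CPM, so the higher level was spread over nearly the whole section. Spots of 1 section share an animal and a library and are no replicates. Arrdc4, the arrestin of the same family that ChREBP also drives, was at 20.4 and 18.6 CPM, a log2 ratio of -0.13 (-0.27 to 0.01).

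**Figure D2:**
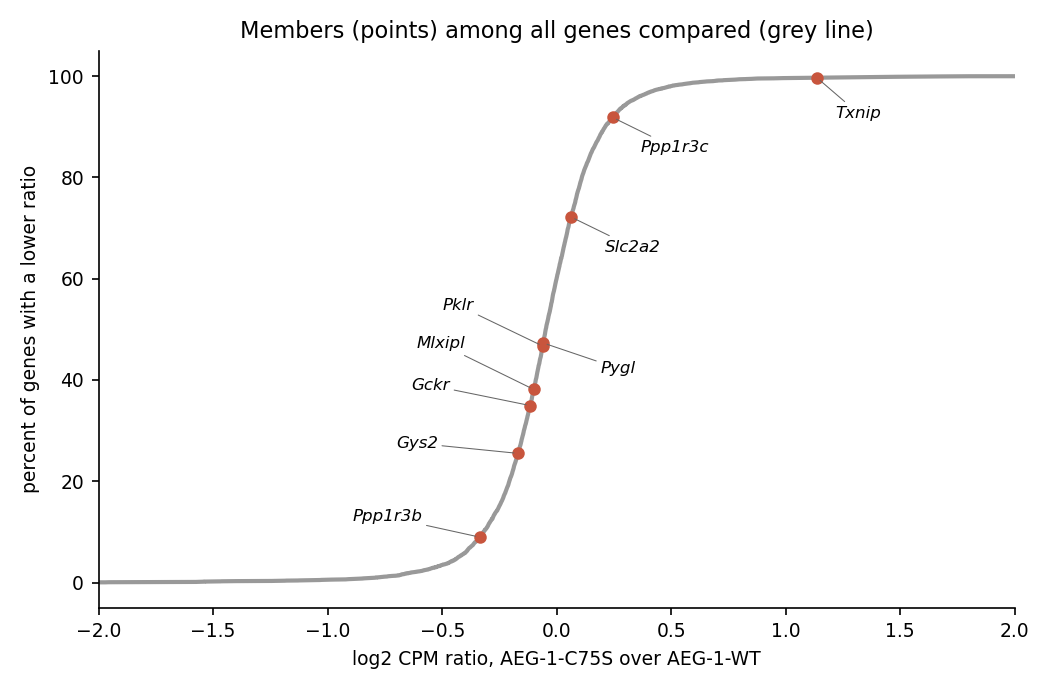
Log2 CPM ratio of C75S over WT (x axis) against the percent of the 8729 genes compared with a lower ratio (y axis); the grey line is all genes and the points are the 9 members. Txnip sits at 99.7%, Ppp1r3c at 91.8% and Ppp1r3b at 8.97%, and the other 6 lie between 25.5% and 72.2%.

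Of the glycogen enzymes, the synthase was slightly lower in C75S and the phosphorylase was near level. Gys2 (chromosome 6, 142422613 to 142473109, minus strand), the liver glycogen synthase, was at 252 CPM in WT and 224 CPM in C75S, a log2 ratio of -0.17 (-0.21 to -0.13). Pygl (chromosome 12, 70190811 to 70231488, minus strand), the liver phosphorylase, was at 287 CPM in WT and 276 CPM in C75S. Its log2 ratio of -0.06 (-0.10 to -0.02) was near the all-gene median of -0.05, and 47.3% of the 8729 genes had a lower one. Over all kept spots the synthase ratio was the lower of the 2, by intervals of counting error that do not overlap. In spots of up to 12000 UMIs the ratios were -0.05 (-0.22 to 0.11) for Gys2 and -0.07 (-0.23 to 0.08) for Pygl. In each class of deeper spots Gys2 was the lower.

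The 2 phosphatase subunits lay on opposite sides. Ppp1r3b (chromosome 8, 35375739 to 35388139, plus strand), the main glycogen-targeting subunit of liver, was at 79.0 CPM in WT (76.3 to 81.7) and 62.5 CPM in C75S (60.2 to 65.0), a log2 ratio of -0.34 (-0.41 to -0.26). Ppp1r3c (chromosome 19, 36731731 to 36736653, minus strand), also called PTG, was at 33.7 CPM in WT (31.9 to 35.5) and 39.9 CPM in C75S (38.0 to 41.8), a log2 ratio of 0.24 (0.14 to 0.35). After each spot was thinned to 3000 UMIs the Ppp1r3c ratio was 0.03. Thinning was 1 random draw that left far fewer counts, and no interval was made for it. In spots split by depth the Ppp1r3c ratio lay between 0.13 and 0.31. Both stayed under the 0.5 rule, and 783 of the 8729 genes had a lower ratio than Ppp1r3b and 713 a higher one than Ppp1r3c. The E-box printed for Ppp1r3c was also present in the upstream window of Mlxipl and in 7.15% of all promoter windows. The part of the E-box in these ratios was not tested.

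The lobule axis was taken from Cyp2f2, a periportal enzyme, and Cyp2e1, a pericentral one: spots of each section were ranked by (Cyp2f2 + 1)/(Cyp2e1 + 1) and split into 5 equal bins, bin 1 the most periportal and bin 5 the most pericentral. The bins held 461 to 462 spots in WT and 432 to 433 in C75S. From bin 1 to bin 5, Cyp2f2 went from 2444 to 370 CPM in WT and from 2773 to 569 CPM in C75S, which follows from the split. Below, an axis ratio is log2 of CPM in bin 1 over bin 5, so a positive value is periportal. Over the 8729 genes its median was -0.12 in WT and -0.10 in C75S. Albumin took 15.7% of UMIs in bin 1 and 9.56% in bin 5 of WT, and 14.6% and 9.22% in C75S.

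Pklr and Gys2 were the most periportal members in both sections and Mlxipl the most pericentral. The median axis ratio of the members was 0.18 in WT and 0.14 in C75S. By an axis ratio of at least 0.5 in both sections, 1 of the 9 members (Pklr) was periportal, against 1.98% of the 8729 genes, and 0 were at -0.5 or below in both, against 3.68%. Scaled to hepatocyte genes, which albumin dominates, every axis ratio shifted down, and the all-gene medians became -0.62 and -0.54. There Pklr fell short of the rule at 0.25 and 0.35, and Mlxipl and Ppp1r3c passed -0.5 in both sections. Slc2a2, Pygl and Ppp1r3b turned negative in both sections, Txnip in WT, and Gys2 and Gckr in C75S. Taken relative to the all-gene median, which cancels any rescaling, the axis ratios of Pklr, Gys2, Slc2a2, Pygl and Ppp1r3b were above 0 and that of Mlxipl below 0 in both sections under each setting that changed the spots, their weights or the bins. That of Txnip was 0.47 in WT and 0.04 in C75S.

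**Figure D3:**
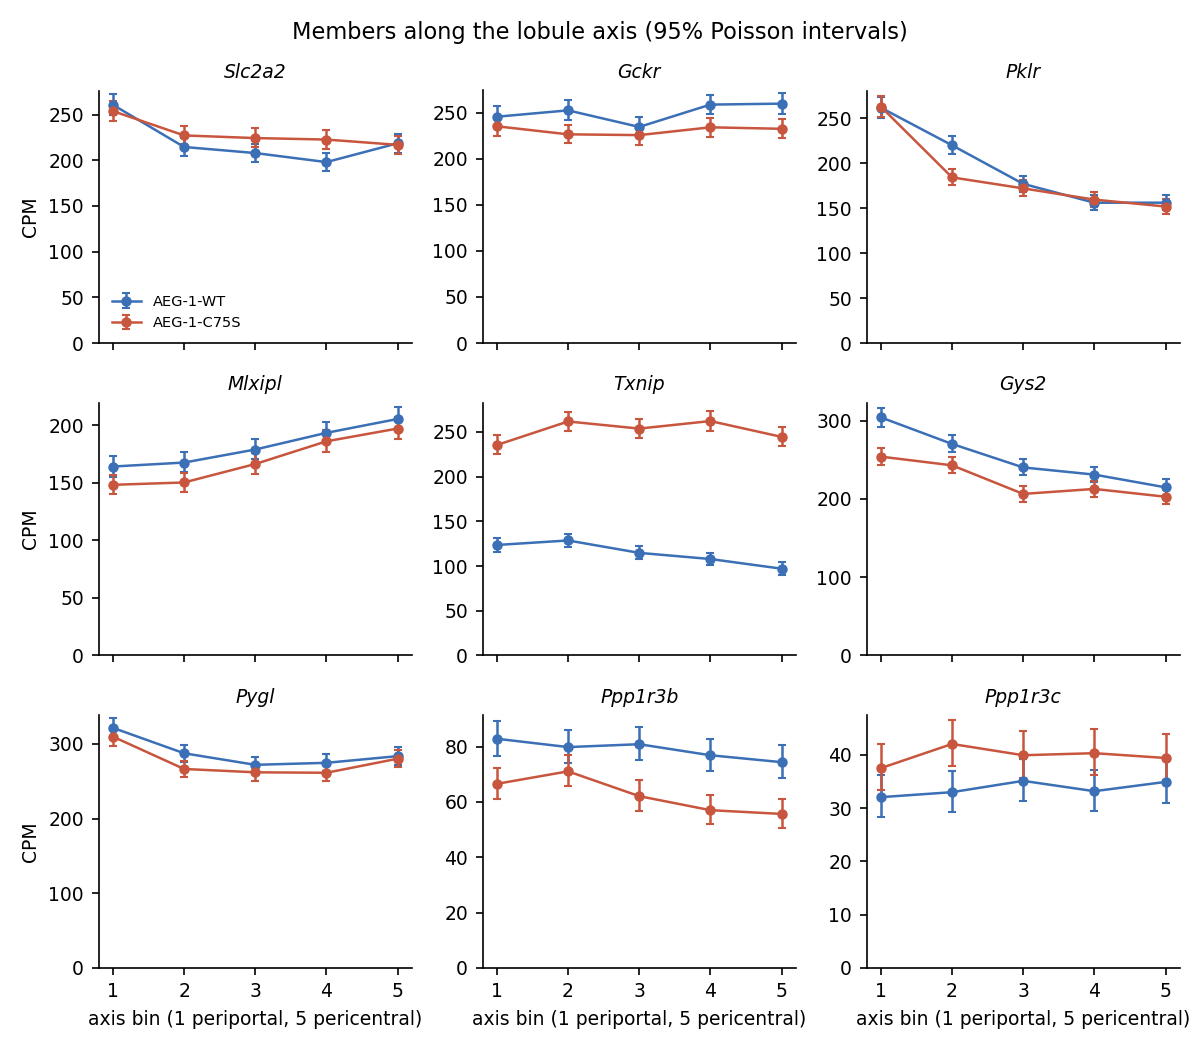
Level of each member in CPM (y axis, from 0) in the 5 axis bins from most periportal (1) to most pericentral (5), for WT (blue) and C75S (red), with 95% Poisson intervals. Pklr and Gys2 slope down toward the central vein and Mlxipl slopes up in both sections, while Txnip slopes down in WT and lies between 235 and 262 CPM in C75S.

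Pklr was the steepest member, and with 5 bins its slope was alike in the sections. In WT it was at 262, 220, 177, 156 and 156 CPM from bin 1 to bin 5, and in C75S at 263, 184, 172, 160 and 152 CPM. The axis ratio was 0.75 (0.64 to 0.85) in WT and 0.79 (0.69 to 0.89) in C75S. Bin 2 was where the sections parted, with a log2 ratio of C75S over WT of -0.26 (-0.35 to -0.16), while the other 4 intervals held 0.

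Gys2 came next in both sections, with a gentler slope in C75S. It was at 304, 270, 240, 231 and 215 CPM in WT and at 254, 243, 206, 213 and 203 CPM in C75S. The axis ratio was 0.50 (0.41 to 0.59) in WT and 0.33 (0.23 to 0.42) in C75S, a difference of -0.18 (-0.31 to -0.05). The log2 ratio of C75S over WT was -0.26, -0.15, -0.22, -0.12 and -0.08 from bin 1 to bin 5, and the interval of bin 5 held 0. With 3 bins in place of 5 the difference of the axis ratios was -0.09.

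Mlxipl sloped the other way from Pklr. It was at 164, 168, 179, 193 and 205 CPM from bin 1 to bin 5 in WT and at 148, 150, 166, 186 and 197 CPM in C75S. Its axis ratio was -0.32 (-0.43 to -0.22) in WT and -0.41 (-0.52 to -0.30) in C75S. Of the 19 listed ChREBP targets compared, 5 were periportal by the 0.5 rule in both sections, against 1.98% of all genes compared. These were Pklr, Arrdc4, Acly, Acaca and Fasn, and 0 were pericentral, against 3.68%. The list holds Pklr, a member already called periportal, and was drawn up with earlier results known, so the count only describes.

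Slc2a2 and Pygl had shallow periportal slopes that differed little between the sections. Slc2a2 was at 261 CPM in bin 1 and 219 CPM in bin 5 of WT, and at 254 and 217 CPM in C75S, with axis ratios of 0.25 (0.16 to 0.35) and 0.23 (0.13 to 0.32). Its lowest WT value was in bin 4, at 198 CPM, where C75S had 223 CPM. Pygl was at 321 and 284 CPM in the end bins of WT and at 310 and 280 CPM in those of C75S, with axis ratios of 0.18 (0.10 to 0.26) and 0.14 (0.06 to 0.23). Its lowest values lay in the middle, at 272 CPM in bin 3 of WT and 261 CPM in bin 4 of C75S.

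Ppp1r3b was periportal beyond counting error in C75S, where it ranked after Gys2. It went from 66.5 CPM in bin 1 to 55.6 CPM in bin 5 there, an axis ratio of 0.26 (0.08 to 0.44). After each spot was thinned to 3000 UMIs this axis ratio came to -0.02, from far fewer counts and without an interval. In WT Ppp1r3b went from 82.8 to 74.4 CPM, an axis ratio of 0.16 (-0.01 to 0.32). The axis ratios of the sections differed by 0.10 (-0.14 to 0.34), an interval that held 0. Ppp1r3b was lower in C75S in each of the 5 bins.

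Gckr and Ppp1r3c were near flat. Gckr ran between 234 and 260 CPM in WT and between 226 and 235 CPM in C75S, with axis ratios of -0.08 (-0.17 to 0.01) and 0.02 (-0.08 to 0.11). Ppp1r3c stayed between 32.0 and 35.1 CPM in WT and between 37.5 and 42.0 CPM in C75S, and its axis ratios of -0.12 (-0.37 to 0.13) and -0.07 (-0.30 to 0.16) had wide intervals from 255 to 374 UMIs a bin. Ranked from periportal to pericentral, Pklr lay apart from the next member in both sections and Mlxipl from the one above it in C75S, while every other pair of neighbours had overlapping intervals.

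Txnip had a slope in WT and none beyond counting error in C75S. It was at 124, 129, 115, 108 and 97.0 CPM from bin 1 to bin 5 in WT and at 235, 262, 254, 262 and 244 CPM in C75S. The axis ratio was 0.35 (0.21 to 0.49) in WT and -0.05 (-0.15 to 0.04) in C75S, a difference of -0.40 (-0.57 to -0.24). The log2 ratio between the sections accordingly went from 0.93 in bin 1 through 1.02, 1.14 and 1.28 to 1.33 in bin 5, or from 1.90-fold to 2.52-fold. It was at least 0.5 in each bin for this 1 of the 9 members, against 1.03% of the 8729 genes. The axis ratios of the sections differed by at least 0.5 for 0 of the 9 members, against 6.70% of genes. Txnip passed that mark at -0.52 when 10 bins replaced 5 and at -0.54 over spots with 12000 to 25000 UMIs. The share of all genes past it was not counted under those settings.

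**Figure D4:**
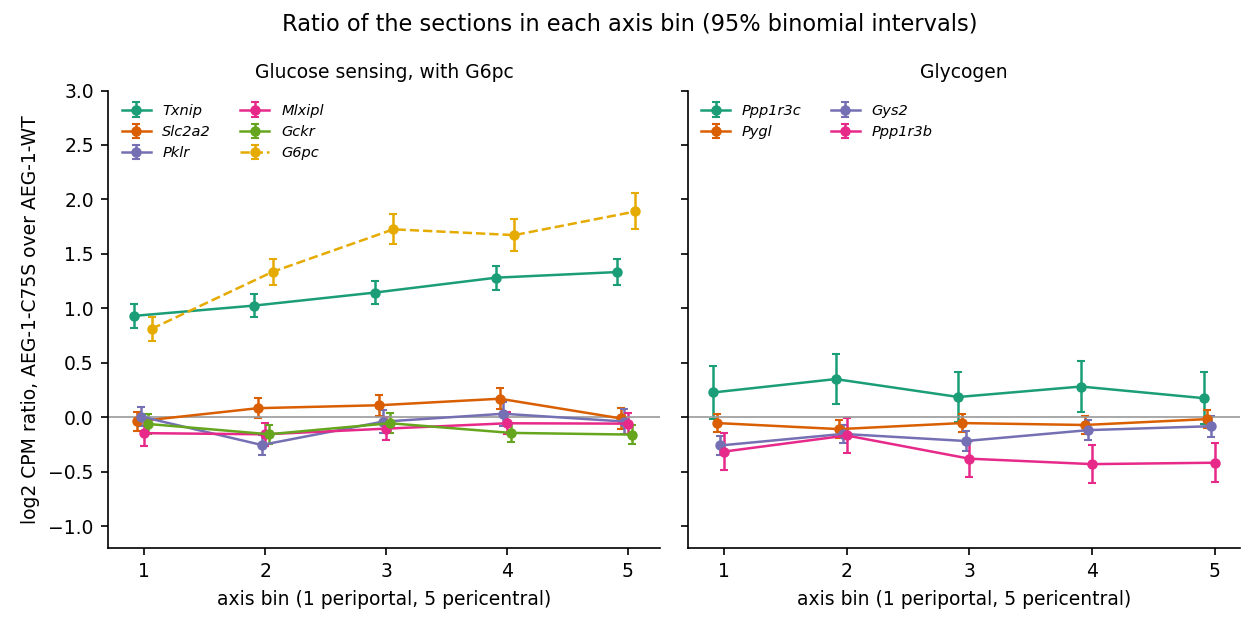
Log2 CPM ratio of C75S over WT (y axis) in each axis bin from most periportal (1) to most pericentral (5), with 95% binomial intervals; the left panel has the glucose sensing members with G6pc as a dashed line, the right panel the glycogen members. Txnip climbs from 0.93 to 1.33 and G6pc from 0.81 to 1.89, and every other member stays within 0.5 of 0 in each bin.

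Glucose-6-phosphatase, which frees glucose from its phosphate, also differed most at the central end. Its gene G6pc was at 132, 89.3, 66.3, 59.0 and 48.4 CPM from bin 1 to bin 5 in WT and at 232, 225, 219, 188 and 179 CPM in C75S. Its axis ratio was 1.45 (1.28 to 1.62) in WT and 0.38 (0.28 to 0.47) in C75S.

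In WT, Txnip was highest in spots rich in portal tract genes. Within each section, spots were ranked by their share of cholangiocyte, portal matrix and smooth muscle genes. The top 10% (231 spots in WT, 217 in C75S) were set against the rest. This share is fixed, while these lists summed lower in C75S, so the spots of the sections need not hold like tissue. Bins 4 and 5 held 13 and 13 of these spots in WT and 26 and 22 in C75S. Txnip was at 187 CPM in these spots and 106 CPM elsewhere in WT, a log2 ratio of 0.82 (0.71 to 0.93), and at 256 and 251 CPM in C75S, a log2 ratio of 0.03 (-0.08 to 0.13). Within bin 1 the WT values were 185 CPM in 101 portal tract spots and 105 CPM in the other 361, and within bin 2 they were 189 and 114 CPM. In C75S the corresponding values were 229 and 236 CPM in bin 1 and 278 and 259 CPM in bin 2. In bin 3 portal tract spots were higher in both sections, at 241 against 105 CPM in WT (24 spots) and at 328 against 252 CPM in C75S (25 spots). The C75S log2 ratio there was 0.38 (0.02 to 0.72). In bins 4 and 5, with few such spots, the intervals held 0 in both sections. The WT log2 ratios there were 0.27 (-0.29 to 0.79) and 0.13 (-0.47 to 0.67).

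Outside these portal tract spots, WT Txnip was at 105 CPM in bin 1 and 96.8 CPM in bin 5. The axis ratio was not recomputed without portal tract spots alone. It was recomputed with a wider list that added red cell genes, and with the bins cut anew. Without the 10% of spots richest in portal tract and red cell genes, the Txnip axis ratio was 0.16 in WT and -0.03 in C75S. The ratio between the sections was then 1.22, against 1.14 with them. Portal matrix and smooth muscle genes were lower in the C75S section, as given above, and their part in the Txnip ratio was not tested. Pklr was at 257 CPM in portal tract spots against 186 CPM elsewhere in WT, and at 202 against 184 CPM in C75S. Within bin 1 it was at 313 against 247 CPM in WT and at 250 against 265 CPM in C75S, where the interval held 0 in each of the 5 bins. In the spots richest in Kupffer cell genes, Txnip was at 123 CPM against 114 CPM elsewhere in WT and at 249 against 252 CPM in C75S, and in those richest in red cell genes at 120 against 114 CPM and 244 against 252 CPM.

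The depth of a spot made little difference to Txnip. In 5 classes of depth, from spots of up to 12000 UMIs to spots of 25000 to 50000 UMIs, it ranged from 112 to 121 CPM in WT and from 246 to 265 CPM in C75S, and the log2 ratio of the sections from 1.11 to 1.15. The C75S section held more shallow spots, 503 against 168 with up to 12000 UMIs, and more deep ones, 538 against 258 above 25000. Other section ratios did move with depth, and 4 members changed sign over the classes. From the shallowest to the deepest spots, the log2 ratio went from 0.28 (0.10 to 0.46) to -0.06 for Slc2a2, from 0.18 (-0.01 to 0.38) to -0.15 for Mlxipl, from 0.12 (-0.04 to 0.29) to -0.09 for Gckr and from 0.09 (-0.09 to 0.28) to -0.11 for Pklr. Ppp1r3b was between -0.43 and -0.28 in every class, Gys2 and Pygl were also below 0 in each class and Ppp1r3c above 0. For these last members some intervals held 0. In the shallowest spots they were -0.22 to 0.11 for Gys2, -0.23 to 0.08 for Pygl and -0.28 to 0.59 for Ppp1r3c. In the deepest they were -0.23 to -0.07, -0.13 to 0.02 and -0.07 to 0.34.

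**Figure D5:**
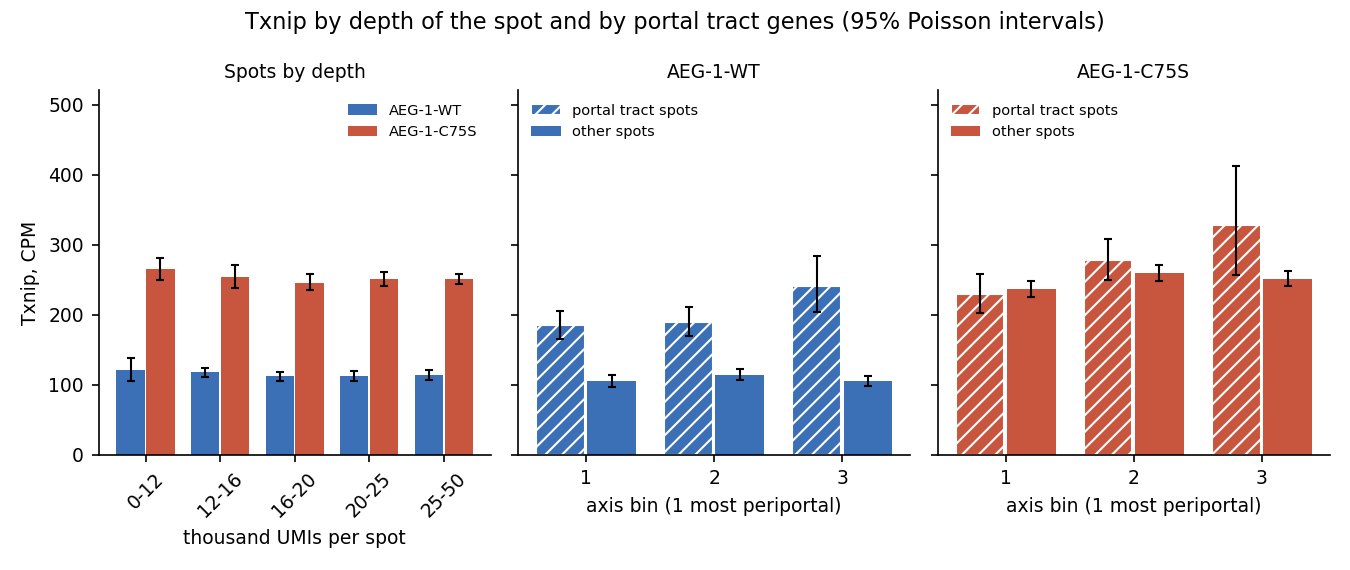
Txnip in CPM (y axis, from 0) with 95% Poisson intervals. The left panel splits spots by UMIs and shows WT (blue) and C75S (red); the other panels show portal tract spots (hatched) beside the other spots of bins 1 to 3 in each section. WT portal tract spots stand at 185, 189 and 241 CPM over 105, 114 and 105 CPM in the rest, and C75S portal tract spots at 229, 278 and 328 CPM beside 236, 259 and 252 CPM.

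Of the 17 other genes of sugar metabolism, glucose release and sensing in the list, all 17 had enough UMIs to compare, 1 was higher by the 0.5 rule (G6pc, at 78.6 CPM in WT and 209 CPM in C75S), against 1.98% of all genes, and 0 were lower, against 3.48%. Their median log2 ratio was -0.13. This list too was drawn up with earlier results known, so its counts only describe. Pck1, which commits carbon to gluconeogenesis, was at 1933 CPM in WT and 1564 CPM in C75S (-0.31), the opposite side from G6pc. Of these genes 4 were periportal in both sections by the same mark of 0.5 (1.98% of all genes were), with axis ratios of 1.19 and 1.0 for Pck1, 0.95 and 0.52 for Arrdc4, 0.83 and 0.62 for Fbp1, and 0.71 and 0.59 for Tkfc, WT before C75S. Pfkfb1, the bifunctional enzyme that sets fructose 2,6-bisphosphate, was the 1 pericentral gene (3.68% of all genes were), at -1.04 and -0.92.

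Of 20 other glycogen genes, 14 had enough UMIs to compare, 0 were higher, against 1.98% of all genes, 1 was lower, against 3.48%, and their median was -0.08. These shares were near those of all genes. The lower gene was Ppp1r3e, another phosphatase-targeting subunit, at 8.88 CPM in WT and 6.21 CPM in C75S (-0.51, -0.75 to -0.28). Ugp2, which makes the UDP-glucose that the synthase uses, was at 284 and 270 CPM (-0.07). The branching enzyme Gbe1 was at 165 and 188 CPM (0.20). None of the 14 passed 0.5 along the axis in both sections. Of the 6 genes under the minimum of 500 UMIs, those past 0.5 in either direction are named. Stbd1 summed to 286 UMIs in WT and 199 in C75S (-0.50, -0.77 to -0.24). Ppp1r3g, another targeting subunit, summed to 60 UMIs in WT and 170 in C75S (1.52, 1.09 to 1.97), and Nhlrc1, the ubiquitin ligase malin, to 105 and 56 (-0.89, -1.38 to -0.41). The muscle and brain counterparts were scarce, as Gys1 summed to 140 and 97 UMIs and Pygb to 248 and 218, and of 14 genes of other tissues 4 could be compared, with 0 higher and 0 lower and a median of 0.18. Among these was Pkm, the pyruvate kinase of other tissues, with 846 UMIs in WT and 934 in C75S.

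The listed ChREBP targets lay on both sides of their WT level. Of 22 listed targets, which include Pklr, Txnip, Slc2a2, Gckr and G6pc, 21 were in the tables and 19 had enough UMIs, 5 were higher in C75S by the 0.5 rule (1.98% of all genes compared were), 1 was lower (3.48% of all genes), and the median was 0.07, against -0.05 over all genes. The list was drawn up with these values known. The 5 were Txnip, G6pc, Rgs16, Scd1 and Gpd1. Rgs16, a brake on G protein signalling, was at 108 CPM in WT and 244 CPM in C75S (1.18), Scd1, the fatty acid desaturase, at 701 and 1412 CPM (1.01), and Gpd1, which makes glycerol 3-phosphate, at 86.6 and 144 CPM (0.73). Thrsp, a lipogenic nuclear protein, was on the other side, at 134 CPM in WT and 43.3 CPM in C75S (-1.63, -1.71 to -1.55). Acly, which makes cytosolic acetyl-CoA, was at 212 and 168 CPM (-0.34). Pklr, Gckr and Slc2a2 were among the 13 between the marks. Fgf21 and Pnpla3 were in the tables with too few UMIs to be compared, so these counts leave them out. Fgf21 summed to 49 UMIs in WT and 322 in C75S (2.74, 2.30 to 3.20), and Pnpla3 to 4 and 0.

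Along the axis, the pattern of each member was set against 6883 genes with at least 1000 UMIs, by Pearson's r of log2(CPM + 1) over 10 points, the 5 bins of each section, with each section's mean taken off. The bins of a section share a library and the split, so these values only describe. Pklr was most like Got1, Gnmt and Tkfc (r from 0.98 to 0.99), Gys2 most like Mup20, Fgfr2 and Maob (0.99 each), and Mlxipl most like Prpf18, Abcd3 and Phldb2 (0.99 each). Txnip was most like Reep5 (0.96), Pcolce (0.95) and Fgl2 (0.94), all periportal in WT and nearer flat in C75S, with axis ratios for Pcolce of 0.73 and 0.07. Slc2a2 was most like C8g, Kng1 and Bri3 (0.95 each), Pygl most like Atp5a1 (0.98), Aass and Hp (0.97 each). Looser matches were found for the other members, with Maff, Diaph1 and Pla2g15 for Gckr (0.89 to 0.90), Kdm7a, Leap2 and Clybl for Ppp1r3b (0.91 to 0.92) and Ago1, Taf11 and St7l for Ppp1r3c (0.91 to 0.93). Among the members, Pklr and Gys2 were the closest pair (0.93), and Mlxipl ran against Ppp1r3b (-0.92), Gys2 (-0.87) and Pklr (-0.85).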

How the data were processed

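The authors made gene-count matrices with Space Ranger 2.0.1 on the mm10 reference and probe set, per the submitters' processing notes. The deposited tables hold raw UMI counts of 19465 gene entries for spots under tissue. Of 11 repeated symbols only the first row was read. Spots with more than 50000 UMIs were left out, counts were summed per section and per axis bin, and sums were divided by their total UMIs (CPM). A gene's probes set its capture, so levels were not compared between genes.

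With 1 section per genotype no test was run. Intervals at 95% are exact Poisson for sums, exact binomial (Clopper-Pearson) for log2 ratios of 2 sums, and normal for a difference of 2 log2 ratios. Log2 ratios past 0.5 in either direction were counted over genes with 500 UMIs or more.

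All 9 members were named. From the lists of partners, ChREBP targets and counterparts in other tissues, genes past 0.5 between the sections, or along the axis in both, were named, up to 6 a list by size, with direct partners of a member whatever their value. Some genes are not reported here and were left out of these lists and their counts. Acaca and Fasn were named beyond that rule to complete a count, and Fgf21 and Pnpla3 as ChREBP targets with too few UMIs to be compared. Mtdh and the genes that define the axis were named as such. The 3 genes with the most similar pattern were named per member. The members and lists were chosen with earlier results of these data known. Code was tested on simulated counts and run with python 3.11.15, numpy 2.4.6, scipy 1.17.1 and pandas 2.3.3.

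Alternatives were no spot filter, an added filter of 100 to 7000 genes per spot, equal weight per spot, totals that leave out the 20 most abundant genes, TMM factors (edgeR 4.0.16 in R 4.3.3), centring on the median gene, scaling to hepatocyte genes, thinning to 3000 UMIs a spot, and leaving out portal tract and blood spots. For the axis they were 8 zone genes in place of the pair, joint cut points, 3 or 10 bins, and bins within classes of depth. Restriction to spots with 12000 to 25000 UMIs was chosen after seeing the data.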

Additional observations from a re-analysis of the deposited data

How the results depend on the processing

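Txnip was the 1 member past 0.5 between the sections under every setting run, with a log2 ratio from 1.06 (scaled to hepatocyte genes) to 1.22 (without portal tract and blood spots), and 0 members were past -0.5. Of the 90 recomputed section ratios of the 9 members, 89 kept their sign, the exception being Slc2a2 scaled to hepatocyte genes. The median log2 ratio of the members moved to -0.0045 with TMM factors, to -0.013 centred on the median gene and to -0.14 scaled to hepatocyte genes. Along the axis, scaling to hepatocyte genes left 0 members periportal and put 2 (Mlxipl and Ppp1r3c) past -0.5 in both sections. The all-gene medians were then past that mark too, at -0.62 in WT and -0.54 in C75S. Relative to those medians Ppp1r3c was at 0.0009 in WT and 0.03 in C75S. The share of all genes past the mark was not counted under this setting. The axis ratio differed between the sections by at least 0.5 for 1 member under thinning (Mlxipl, at -0.52), for 1 with 10 bins and for 1 over spots with 12000 to 25000 UMIs (Txnip in both), and for 0 otherwise. The share of all genes past that mark was 6.70% in the main setting and was not counted under these. Thinning was 1 random draw that left far fewer counts, and no interval was made for it. In the main setting the Mlxipl difference was -0.09 (-0.24 to 0.06). For Mlxipl after thinning the cause was not tested. Under the 11 settings that do not rescale all genes alike, 98 of 99 axis ratios kept their sign in WT (Gckr did not) and 94 of 99 in C75S, where those of Gckr, Ppp1r3b and Ppp1r3c turned under at least 1. No paired analysis was possible because each genotype had 1 section. Depth limits Ppp1r3c most, at 0.616 UMIs a spot in WT and 0.768 in C75S.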
